A study of Mus musculus with 18 samples.

Results

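Many mammalian genes can begin transcription at several places, and this account concerns the mouse genes that the deposited promoter table lists at 2 or more distant start sites. A gene was taken where it had at least 2 promoter windows on 1 chromosome whose starts lay at least 5000 bases apart, each with a mean of at least 10 CPM (the count over the library's total, times 1e6) over all 18 libraries. The rule found 544 genes with 1193 windows, among 24361 gene names and 26065 windows in all. The mean CPM chose these genes, so their level is a description here, while the choice between a gene's sites from group to group was not part of the rule.

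Alternative promoters give transcripts of 1 gene different first exons, and with them different 5′ leaders or N-terminal protein sequence, and they let a gene respond to different factors in different cells. In brain the arrangement is known from long synaptic and signalling genes and from Bdnf, the neurotrophin gene, whose many first exons splice to a common coding exon. ATAC-seq reads this at the DNA level: the Tn5 transposase cuts open chromatin, and the number of fragments at a start site measures how accessible that site is, not how much RNA it makes.

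The study measured ATAC-seq in nuclei of C57BL/6J mice aged 2 to 3 months and set fear-conditioned mice against control mice, and mice with an Erbb4 knockout (KO) in somatostatin (SOM+) cells against wild-type (WT) mice. SOM+ nuclei, gated on a nuclear GFP of the SOM H2B-GFP line and labelled WT in genotype, came from the central amygdala (CeA) and from cortex (prefrontal, by the protocol) of fear-conditioned and of control mice, 2 libraries per group. Bulk nuclei, gated on a DNA stain and so holding every cell type, came from CeA and cortex of KO mice, 3 libraries in each region, and of WT mice, 2 in each. A library was made from 50000 sorted nuclei, and the protocol calls these portions technical replicates, so p values measure only the spread between these libraries. SOM+ and bulk nuclei differ in both the sort and the mouse line, and fewer nuclei of a type and less accessibility per nucleus cannot be told apart in either. For the bulk WT libraries the genotype label reads as for the KO, and WT was taken from their titles.

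Promoter counts per library ran between 2655208 and 14699469, with 2655208 to 7744634 in CeA SOM+ libraries and 9473508 to 14699469 in cortex SOM+ libraries. In 4 bulk libraries the Y-linked counts went against the labelled sex: CeA and cortex KO replicate 2, labelled male, had 0, and CeA and cortex WT replicate 1, labelled female, had 243 and 627. WT replicate 2, labelled male, had 172 in CeA and 484 in cortex. Every KO library was labelled male, so genotype and labelled sex are partly confounded. Whether the sex labels or the genotypes of the 4 libraries are wrong cannot be told. The calls between regions and sorts that use bulk libraries are therefore given with and without these 4. Leaving them out leaves WT replicate 2 as the only WT library in each region, so those fits are a weak check. Shares called over all genes or windows are not given for those fits. Whether the genes described lost more calls there than the rest therefore cannot be read from them. Where every library of a group lies apart, the remaining ones do so too. Accessibility at ribosomal protein promoters over that at olfactory receptor promoters, a measure of enrichment, was 17.2 to 34.3 in CeA SOM+ libraries, 50.4 to 69.1 in cortex SOM+ libraries and 9.4 to 18.3 in bulk libraries. The promoters of 8 GABAergic neuron markers summed to group means of 562 to 621 CPM in SOM+ nuclei, 475 to 547 CPM in CeA bulk nuclei and 177 to 181 CPM in cortex bulk nuclei, and those of 9 glutamatergic neuron markers to 147 to 188 CPM in SOM+ nuclei, 265 to 275 CPM in CeA bulk nuclei and 548 to 551 CPM in cortex bulk nuclei. A list of 9 somatostatin neuron markers summed to 359 to 360 CPM in cortex SOM+ nuclei, but only to 160 to 169 CPM in CeA SOM+ nuclei, below the 204 to 231 CPM of CeA bulk nuclei. No marker of any list was at 0 in any group. Erbb4 had 1 window and was not among the genes taken: its promoter had 31.7 to 40 CPM in CeA bulk KO against 41.0 to 41.5 CPM in CeA bulk WT, and 29.3 to 38 CPM in cortex bulk KO against 36.3 to 42.1 CPM in cortex bulk WT, which checks little, since the deletion is in SOM+ cells alone and its position is not in the labels.

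The start sites on which the results below turn are shown by the 300 bases from 250 before to 50 after the annotated start, from RefSeq in build GRCm38.p6, each read 5′ to 3′ along its gene with every CpG in capitals. The count windows are in build mm9, and windows were matched to RefSeq starts by the spacing between a gene's starts, with no conversion of coordinates. Tiam2 site 1 lies at chr17:3396957-3397256 and site 2 at chr17:3482065-3482364, both on the plus strand, and they are shown because the balance between them differed most between the regions in SOM+ nuclei. They hold 11 and 2 CpGs.
Tiam2 site 1: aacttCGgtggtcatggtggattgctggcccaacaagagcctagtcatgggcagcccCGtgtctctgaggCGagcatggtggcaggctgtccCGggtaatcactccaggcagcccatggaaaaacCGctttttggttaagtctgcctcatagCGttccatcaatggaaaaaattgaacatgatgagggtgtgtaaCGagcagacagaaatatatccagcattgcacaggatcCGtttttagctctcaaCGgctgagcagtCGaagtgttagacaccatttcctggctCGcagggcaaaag
Tiam2 site 2: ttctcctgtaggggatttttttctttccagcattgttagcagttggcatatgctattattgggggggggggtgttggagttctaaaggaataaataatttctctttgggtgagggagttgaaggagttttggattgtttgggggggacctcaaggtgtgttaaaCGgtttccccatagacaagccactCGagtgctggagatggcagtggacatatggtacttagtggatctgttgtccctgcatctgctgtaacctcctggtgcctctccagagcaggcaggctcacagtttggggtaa
Zfp385b has 3 sites on the minus strand, at chr2:77816767-77817066, chr2:77703223-77703522 and chr2:77519617-77519916, with 43, 12 and 7 CpGs, and is shown because a different site led in CeA SOM+, in cortex SOM+ and in cortex bulk nuclei.
Zfp385b site 1: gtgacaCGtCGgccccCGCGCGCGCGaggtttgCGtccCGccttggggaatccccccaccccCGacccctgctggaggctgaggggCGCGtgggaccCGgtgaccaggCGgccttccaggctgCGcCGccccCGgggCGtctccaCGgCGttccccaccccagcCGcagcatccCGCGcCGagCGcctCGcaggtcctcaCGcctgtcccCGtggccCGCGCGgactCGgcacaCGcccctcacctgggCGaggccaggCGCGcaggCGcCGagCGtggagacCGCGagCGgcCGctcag
Zfp385b site 2: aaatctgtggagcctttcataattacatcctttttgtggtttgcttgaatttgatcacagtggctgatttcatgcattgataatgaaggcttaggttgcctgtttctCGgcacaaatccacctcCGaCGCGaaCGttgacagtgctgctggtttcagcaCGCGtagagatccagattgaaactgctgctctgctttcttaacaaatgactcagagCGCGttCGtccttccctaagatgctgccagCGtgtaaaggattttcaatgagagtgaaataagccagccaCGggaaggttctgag
Zfp385b site 3: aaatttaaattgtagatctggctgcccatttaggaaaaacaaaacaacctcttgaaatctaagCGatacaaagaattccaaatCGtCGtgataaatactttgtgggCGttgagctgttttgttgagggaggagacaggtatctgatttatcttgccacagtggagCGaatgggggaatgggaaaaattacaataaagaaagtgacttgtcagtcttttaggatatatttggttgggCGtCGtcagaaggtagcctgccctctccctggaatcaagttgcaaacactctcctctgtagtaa
Pou2f1 pairs a site of 32 CpGs at chr1:166002585-166002884 with one of 2 CpGs at chr1:165934899-165935198, both on the minus strand, and is shown as a gene of which the CpG-poor site alone was called.
Pou2f1 site 1: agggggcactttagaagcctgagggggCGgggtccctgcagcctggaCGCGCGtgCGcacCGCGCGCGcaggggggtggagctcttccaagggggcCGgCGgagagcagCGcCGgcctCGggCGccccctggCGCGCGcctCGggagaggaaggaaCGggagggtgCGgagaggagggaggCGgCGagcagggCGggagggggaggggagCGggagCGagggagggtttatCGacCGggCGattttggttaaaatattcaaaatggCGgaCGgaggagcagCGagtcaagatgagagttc
Pou2f1 site 2: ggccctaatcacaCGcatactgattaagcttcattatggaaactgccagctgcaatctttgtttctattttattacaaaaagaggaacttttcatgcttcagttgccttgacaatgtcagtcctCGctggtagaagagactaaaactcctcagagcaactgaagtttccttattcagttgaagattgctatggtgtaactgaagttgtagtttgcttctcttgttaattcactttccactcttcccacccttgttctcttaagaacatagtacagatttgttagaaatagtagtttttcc
The 3 last are minor sites that took a larger share in CeA than in cortex SOM+ nuclei: Hnrnpf site 1 at chr6:117900090-117900389, Gnas site 1 at chr2:174284070-174284369 and Bdnf site 4 at chr2:109722671-109722970, all on the plus strand, with 7, 16 and 8 CpGs.
Hnrnpf site 1: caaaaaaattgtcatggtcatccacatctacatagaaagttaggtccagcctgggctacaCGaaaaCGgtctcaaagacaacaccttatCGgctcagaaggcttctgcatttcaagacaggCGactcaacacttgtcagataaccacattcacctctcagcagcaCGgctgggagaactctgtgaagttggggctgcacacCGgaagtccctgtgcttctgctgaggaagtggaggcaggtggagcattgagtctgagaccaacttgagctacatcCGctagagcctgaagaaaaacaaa
Gnas site 1: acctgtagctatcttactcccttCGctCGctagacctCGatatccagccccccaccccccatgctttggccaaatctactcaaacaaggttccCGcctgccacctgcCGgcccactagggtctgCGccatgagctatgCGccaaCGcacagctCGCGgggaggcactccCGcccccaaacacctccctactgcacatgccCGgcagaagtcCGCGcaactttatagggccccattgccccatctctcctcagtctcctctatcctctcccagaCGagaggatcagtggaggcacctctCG
Bdnf site 4: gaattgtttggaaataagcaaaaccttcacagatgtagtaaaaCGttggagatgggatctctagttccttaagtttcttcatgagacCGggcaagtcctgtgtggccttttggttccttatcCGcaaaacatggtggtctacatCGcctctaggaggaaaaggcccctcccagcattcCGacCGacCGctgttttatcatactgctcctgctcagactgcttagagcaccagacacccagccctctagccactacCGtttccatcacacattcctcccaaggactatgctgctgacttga

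The 544 genes were spread over 20 chromosomes. They made up 41.1% of the 1322 gene names that had windows this far apart at any level. Of them, 457 had 2 windows, 71 had 3, 14 had 4 and 2 had 5. Windows starting within 5000 bases of a stronger window of the same gene were set aside (21 windows), which left 1172 separate start sites. On this count 469 genes had 2 sites, 61 had 3, 11 had 4, and Trim2, an E3 ubiquitin ligase gene, had 5. For 2 genes a single site remained, so 542 genes could be examined for the choice of site. The outermost windows of a gene lay a median of 37346 bases apart (5000 to 3191330), under 20000 bases in 175 genes and over 500000 bases in 16. A window spanned 2000 bases, but 110 were wider, up to 5509 bases, where close starts had been merged. In 102 genes a window overlapped that of another gene and shared its reads.

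At the threshold itself the weakest windows inside belonged to C1qtnf1 (10.02 CPM), Capn3 (10.032 CPM) and Mapre3 (10.05 CPM), and the strongest outside to Acp5 (9.939 CPM), Slc41a3 and Glcci1 (both 9.919 CPM). The median window had a mean of 36.0 CPM and the highest 284.2 CPM. In 887 of the 1193 windows every group mean was at or above 10 CPM. The other 306 were below it in at least 1 group, and 76 in at least 4, so those reached the mean through the groups where they were high. All 1193 windows passed the filter on low counts used in the tests.

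Sites were numbered along the gene, site 1 being the most upstream, in the 466 genes of 2 or more sites whose strand was in the RefSeq promoter table, and by rising coordinate in the others (among those named below: Sybu, Osbpl1a, Dtna, Ank3, Mbp and Gas7). Usage is given as the site share: counts per kb of window at 1 site, as a percentage of the sum over the gene's sites in the same library, which does not depend on the library's total. The strongest site held a median of 66.2% of its gene. It was the most upstream site in 314 of the 466 genes with a strand and the most downstream in 133. Among the 469 genes of 2 sites, the stronger held under 60% in 116 and over 80% in 101.

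RefSeq promoters could be matched to 722 sites. The ratio of observed to expected CpGs in the 300 bases was at least 0.6 in 44.5% of these sites, against 35.8% of all 32851 promoters in the RefSeq table. The sites had to be accessible by the rule and those promoters did not, here and for the motifs below, so the sets are unlike. Both sites were matched in 290 genes of 2 sites, and there the stronger site had a median ratio of 0.726 and the weaker 0.364, with the stronger higher in 214 of the 290 genes. In all 3 short motifs were searched on both strands at the 654 sites with exactly 1 matched promoter. TATAAA was present in 7.03% of them (13.6% of all promoters), TGACGTCA, the cyclic AMP response element, in 2.60% (1.79%), and CACGTG, the E-box, in 6.42% (7.15%). Of the sites printed above, Gnas site 1 alone holds one of them, TATAAA.

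**Figure D1:**
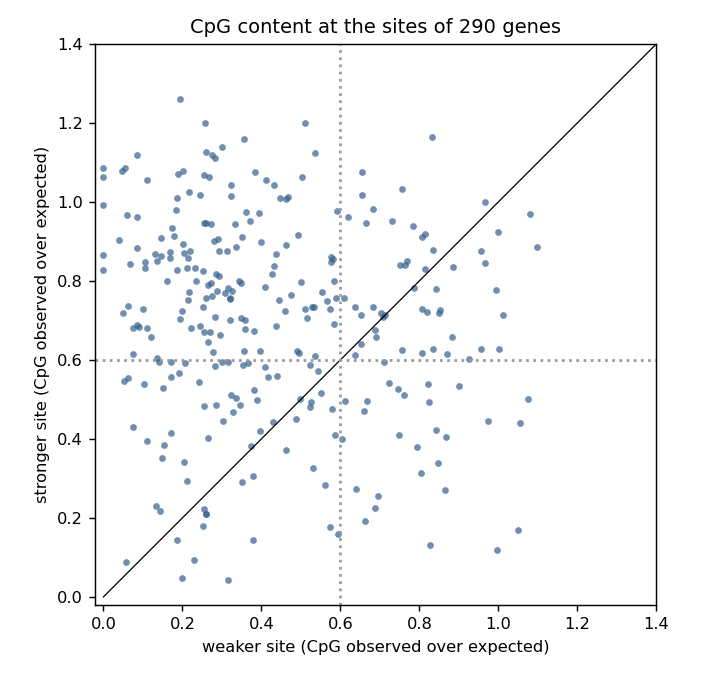
CpG observed over expected in the 300-base RefSeq promoter of the stronger site (y) against the weaker site (x), 1 point per gene, for the 290 genes of 2 sites with both promoters matched; the diagonal marks equal ratios and the dotted lines a ratio of 0.6. Points lie above the diagonal in 214 genes, and the medians are 0.726 for the stronger and 0.364 for the weaker site.

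Which site was strongest was mostly the same across the study. In 378 of the 542 genes (69.7%) the same site was strongest in all 18 libraries, and in 428 it was the same in all 8 group means. The largest range of a site's share over the 8 group means had a median of 12.5 percentage points over genes. The strongest site was 1 in every CeA SOM+ library and another in every cortex SOM+ library in 20 genes, and likewise between every CeA bulk and every cortex bulk library in 7 genes. Between every SOM+ and every bulk library it differed in 0 genes.

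**Figure D2:**
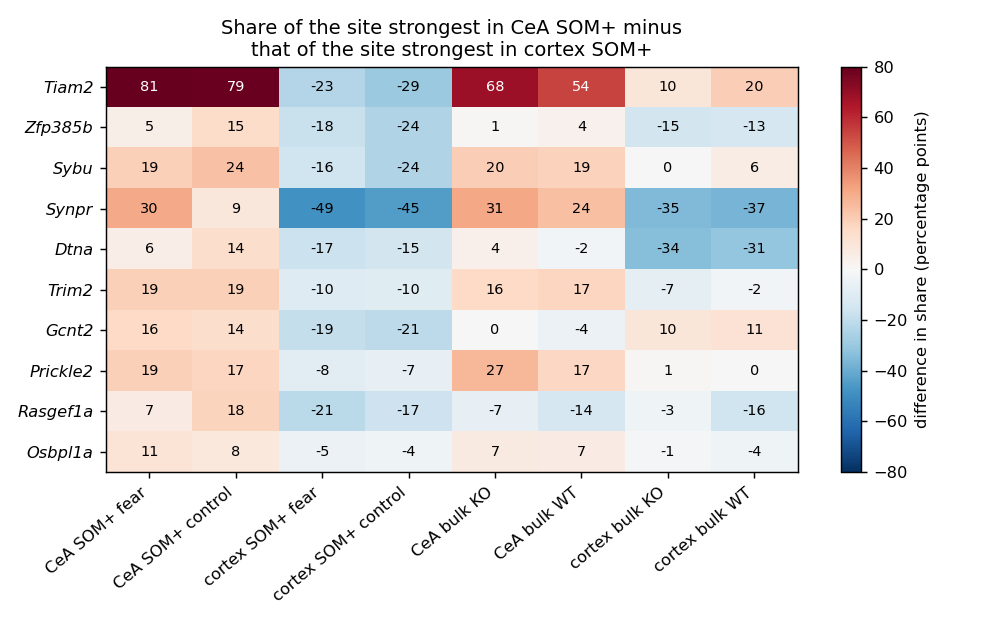
Share of the site that was strongest in CeA SOM+ nuclei minus the share of the site that was strongest in cortex SOM+ nuclei, in percentage points of group means, for 10 of the 20 genes whose strongest site differed between all CeA SOM+ and all cortex SOM+ libraries (rows) over the 8 groups (columns). The 4 SOM+ columns differ in sign between CeA and cortex because that difference chose the genes; the bulk columns were not used to choose them.

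Tiam2, an activator of the Rac GTPase, had the most different balance in SOM+ nuclei. Site 1 (chr17:3396207-3398206, mm9) held 8.1 and 11.2% of its accessibility in CeA SOM+ nuclei of fear-conditioned mice and 11.7 and 9.1% in those of control mice, against 60.7 and 62.6% in cortex SOM+ nuclei of fear-conditioned mice and 68.0 and 61.3% in those of control mice. Every cortex library was far above every CeA library. In bulk nuclei, which the choice did not use, site 1 had 12.8, 19.2 and 15.8% in CeA KO and 19.7 and 26.2% in CeA WT libraries, against 45.8, 40.1 and 49.8% in cortex KO and 40.0 and 40.3% in cortex WT libraries. The groups were apart there too, but site 2 was the stronger in every bulk library, of cortex as of CeA.

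Zfp385b, which encodes a zinc finger protein, had its strongest site at the downstream end in CeA SOM+ nuclei and in the middle in cortex SOM+ nuclei. Site 3 (chr2:77356724-77358723, mm9) held 44.8, 43.4, 49.1 and 52.9% in the CeA SOM+ libraries, against 24.9, 22.8, 19.2 and 20.3% in the cortex SOM+ libraries. In cortex bulk nuclei the CpG-rich site 1 was the strongest, with 52.2 to 56.8% over 5 libraries, against 13.2 to 27.3% over the 5 CeA bulk libraries. CeA SOM+, cortex SOM+ and cortex bulk nuclei thus each had a different strongest site.

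Synpr, which encodes the synaptic vesicle protein synaptoporin, had 24.7, 45.2, 43.9 and 47.3% at site 1 in CeA SOM+ libraries, against 76.0, 72.7, 75.5 and 69.6% in cortex SOM+ libraries. Its bulk libraries were split in the same way, with 28.2 to 38.2% in CeA and 63.1 to 73.7% in cortex, and Synpr was 1 of the 7 genes whose strongest site also differed between the bulk regions. Its site 1 window overlaps that of Gm5087. Trim2 and Osbpl1a, which encodes an oxysterol-binding protein, were among those 7 as well. Trim2 site 3 held 23.1 to 27.2% in CeA SOM+ libraries and 39.1 to 41.7% in cortex SOM+ libraries. Its site 1 held 40.3 to 45.9% in CeA SOM+ libraries and 30 to 32.3% in cortex SOM+ libraries.

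Sybu, which encodes the kinesin linker syntabulin, had 47.0 to 53.2% at site 1 in CeA SOM+ libraries and 18.5 to 25.7% in cortex SOM+ libraries. In bulk nuclei the same site had 47.2 to 48.8% in CeA and 31.5 to 40.0% in cortex. Prickle2, a planar polarity gene, differed at site 2, with 23.1 to 30% in CeA SOM+ libraries and 41.9 to 42.7% in cortex SOM+ libraries. Dtna, which encodes the dystrophin-associated protein alpha-dystrobrevin, had 44.8 to 54.0% at site 3 in CeA SOM+ libraries and 27.9 to 34.0% in cortex SOM+ libraries.

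In 2 of the 10 genes the bulk nuclei did not follow. Rasgef1a, which encodes an exchange factor for Ras-like GTPases, had 40.7 to 47.1% at site 1 in CeA SOM+ libraries and 57.0 to 62.8% in cortex SOM+ libraries, but its bulk shares overlapped, with 50.9 to 61.3% in CeA and 45.3 to 60.5% in cortex. Gcnt2, a glycosyltransferase gene, had 25.0 to 32.4% at site 1 in CeA SOM+ libraries and 45.4 to 58.1% in cortex SOM+ libraries. In bulk nuclei its order was turned round, with 36.9 to 42.0% in CeA and 31.7 to 36.0% in cortex, and the bulk difference over the 3 sites did not pass the test (edgeR adjusted p = 0.469).

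**Figure D3:**
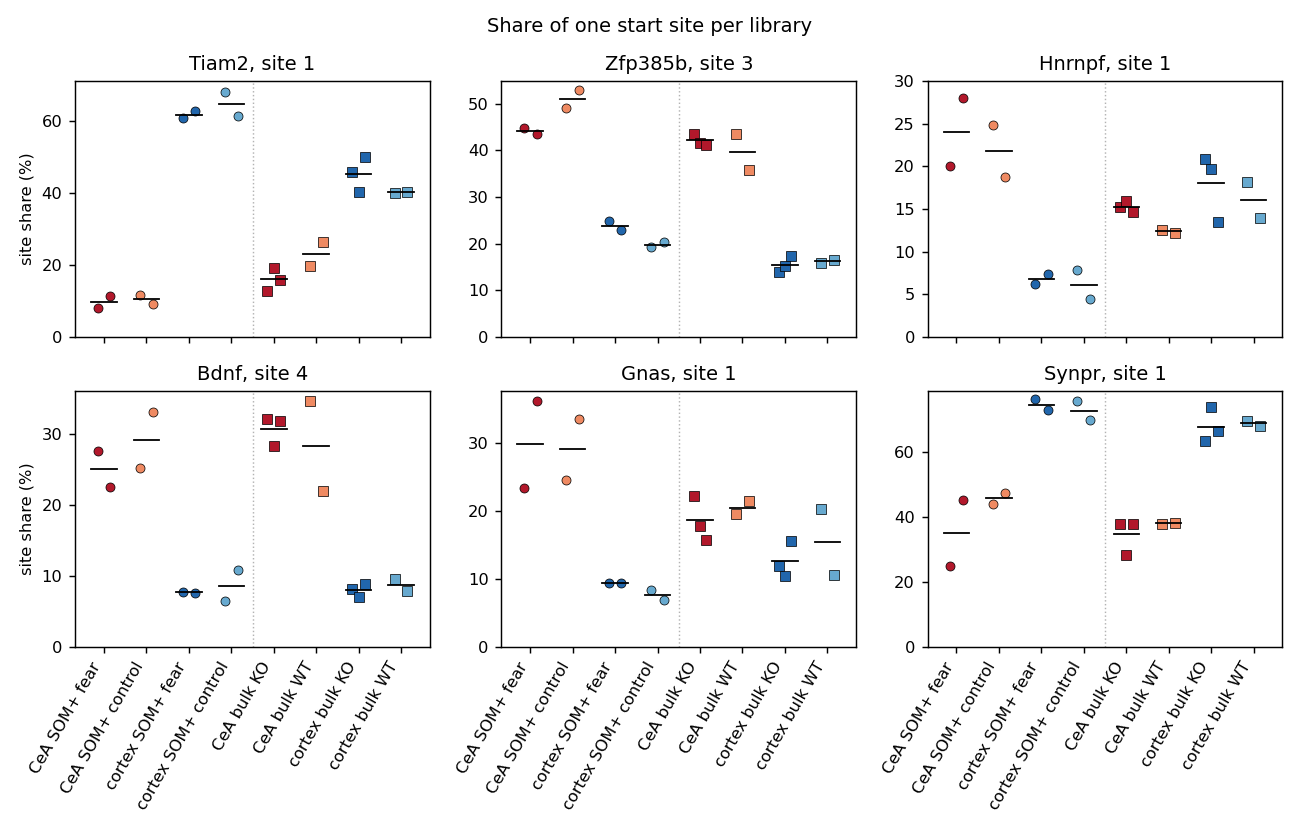
Share of 1 named site in its gene's accessibility (y, percent) in each of the 18 libraries by group (x) for Tiam2, Zfp385b, Hnrnpf, Bdnf, Gnas and Synpr; circles are SOM+ libraries, squares bulk libraries and lines group means. Tiam2 site 1 lies at 8.1 to 11.7% in CeA SOM+ and at 60.7 to 68.0% in cortex SOM+ libraries, and Hnrnpf site 1 separates the regions in SOM+ but not in bulk nuclei.

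The choice of site was tested with edgeR, as whether a gene's sites changed by different amounts between groups, over all genes with several separate windows that passed the count filter (1027 in the fit of the SOM+ libraries, 1022 in that of the bulk libraries and 1025 in that of all 18), with p values adjusted over all of them. A gene is called here at an adjusted p under 0.05. Sizes are given as the log2 site ratio, the counts at 1 site over those at the gene's other sites, as the difference between groups with its standard error (SE), from limma on the per-library ratios. A sign above 0 means that the site took more of its gene in the group named first.

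Between CeA and cortex in SOM+ nuclei, 183 of the 542 genes were called (33.8%), against 27.0% of all 1027 genes tested. The site that the smallest p picked out had shares that did not overlap between the 4 CeA and the 4 cortex libraries in 169 of the 183 (92.3%), against 226 of all 542 (41.7%). The called genes differed by a median of 11.5 percentage points, against 5.06 points over all 542, and 16 differed by over 20 points. The strongest site took the larger share in CeA in 80 of the 183 called genes and in 252 of all 542, and the upstream site of those with a strand in 68 of 157. CeA SOM+ libraries were shallower and of lower enrichment than cortex SOM+ libraries, by the ranges given above, and their part in these differences was not tested.

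The sites of many genes also moved together. Among the 1193 windows, 264 were higher and 460 lower in CeA than in cortex SOM+ nuclei (60.7% called, against 58.1% of all windows of at least 10 CPM and 48.3% of all windows tested, where 21.1% were higher and 27.1% lower), and the median log2 fold change was -0.16, against 0.04 over all windows. The direction of this split depended on the scaling: by limma voom with cyclic loess, 378 were higher and 336 lower, the median was 0.03, and no window called with TMM scaling had the opposite sign with cyclic loess. Shares called over all windows with cyclic loess are not given, here or below. By gene, 34 had sites called in both directions, 190 had every site called in 1 direction, 216 had some sites called in 1 direction and 102 had none called. Tiam2 was 1 of those with opposite moves: site 1 had a log2 fold change of -2.43 ± 0.20 (SE) and site 2 one of 1.52 ± 0.15.

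**Figure D4:**
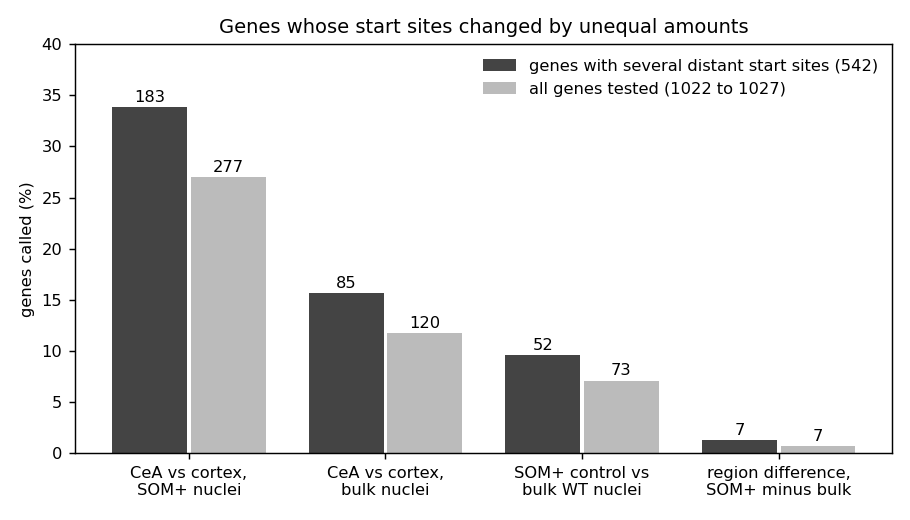
Percentage of genes called for the choice of start site (y; edgeR adjusted p under 0.05) in each comparison (x), for the 542 genes described (dark bars) and for all genes tested (light bars), with the number called above each bar. The comparisons drawn are those of region and sort and their interaction, with 183, 85, 52 and 7 genes called. Fear conditioning and Erbb4 KO, with 0 genes called, are not drawn.

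The largest separation in the test was that of Tiam2, whose log2 site ratio at site 1 differed by -3.94 ± 0.22 between CeA and cortex SOM+ nuclei (edgeR adjusted p = 1.04e-21), with mean shares of 10 ± 1.73% and 63.1 ± 3.37% (SD, n = 4 each). Tacc2, which encodes a coiled-coil protein of microtubules and centrosomes, had a change of the same kind. Its site 1 (chr7:137719998-137721997) held 8.9, 10.3, 7.9 and 15.5% in CeA SOM+ libraries, against 39.4, 45.2, 38.3 and 42.8% in cortex SOM+ libraries, a difference of -2.58 ± 0.24 (edgeR adjusted p = 1.08e-12). Both Tacc2 windows were lower in CeA, site 1 with a log2 fold change of -3.0 ± 0.21 and site 2 with -0.37 ± 0.15, a call that cyclic loess scaling did not make (adjusted p = 0.453).

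Hnrnpf and Pou2f1 had a minor site that moved with little or opposite change at the major one. Hnrnpf encodes a splicing regulator, and its upstream site 1 (chr6:117849358-117851357) held 20, 28.0, 24.8 and 18.7% in CeA SOM+ libraries, against 6.2, 7.4, 7.8 and 4.4% in cortex SOM+ libraries (2.11 ± 0.22, edgeR adjusted p = 1.08e-12). The windows of its sites 2 and 3, the CpG-rich ones, were lower in CeA, with log2 fold changes of -0.49 ± 0.16 and -0.71 ± 0.16; with cyclic loess scaling site 2 was not called (adjusted p = 0.0906). Pou2f1 encodes a broadly expressed octamer-binding transcription factor. Its downstream site 2 (chr1:167864080-167866079), the one printed above with 2 CpGs, held 9.3 to 11.8% in CeA SOM+ libraries and 22.8 to 28.1% in cortex SOM+ libraries. That window was lower in CeA by a log2 fold change of -1.67 ± 0.16, while site 1 had -0.07 ± 0.16 (adjusted p = 0.754).

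Txndc11, a thioredoxin-domain gene, had the same shape with the other sign: site 2 held 18.4 to 24.5% in CeA SOM+ libraries and 4.4 to 7.3% in cortex SOM+ libraries, its window was higher in CeA by 2.12 ± 0.18 on the log2 scale, and site 1 stood at 0.02 ± 0.16. Spata13 gained at site 1, with 73.5 to 80% in CeA SOM+ libraries and 43.8 to 55.6% in cortex SOM+ libraries (1.74 ± 0.18, edgeR adjusted p = 2.54e-09). Zfp385b site 3 differed by 1.70 ± 0.14 (edgeR adjusted p = 1.08e-12) and Sybu site 1 by 1.84 ± 0.13 (edgeR adjusted p = 7.65e-11). That the shares of these 4 genes did not overlap between the regions in SOM+ nuclei was required by the rule that named them. It was so in 226 of all 542 genes (41.7%).

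Among 38 genes of cyclic nucleotide and G protein signalling, 11 were among the 544, and 5 of these were called between the regions in SOM+ nuclei (Gnal, Gnas, Pde2a, Pde4b and Pde8b), with 5 of their list's 24 windows higher and 8 lower and a median log2 fold change of -0.06 (6, 5 and 0.07 with cyclic loess scaling). For this list and those that follow, 27.0% of all genes tested were called, and 33.8% of the 542, to which every gene of the lists counted here belongs. Over all windows tested 21.1% were higher and 27.1% lower (48.3% called), and 58.1% of windows of at least 10 CPM were called. Gnas, the complex imprinted locus of the stimulatory G protein alpha subunit, had 23.4, 36.1, 24.5 and 33.5% at its upstream site 1 in CeA SOM+ libraries, against 9.4, 9.4, 8.3 and 6.9% in cortex SOM+ libraries. The difference was 2.15 ± 0.22 (edgeR adjusted p = 7.65e-11), and the windows moved in opposite directions, with log2 fold changes of 1.63 ± 0.19 at site 1 and -0.47 ± 0.15 at site 2 (adjusted p = 0.229 at site 2 with cyclic loess scaling). In bulk nuclei Gnas site 1 had 15.7 to 22.2% in CeA and 10.4 to 20.3% in cortex libraries, which overlap (edgeR adjusted p = 0.139, and 0.305 without the 4 libraries). Gnal, which encodes the related alpha subunit of olfactory and striatal neurons, had 20.5 to 25.5% at site 1 in CeA and 40.3 to 45.0% in cortex SOM+ libraries (-1.27 ± 0.14, edgeR adjusted p = 5.97e-07). Pde8b, a cyclic AMP phosphodiesterase gene, had 39.0 to 45.5% at site 1 in CeA and 16.5 to 23.0% in cortex SOM+ libraries (1.52 ± 0.17, edgeR adjusted p = 2.06e-08). Pde2a, whose product breaks down cyclic GMP and cyclic AMP, had a smaller but even difference, with 67.9 to 69.8% against 53.6 to 55.1% at site 1.

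Of 50 imprinted genes 4 were among the 544, and 3 were called in SOM+ nuclei: Gnas, Trappc9 and Zdbf2. Over all 1027 genes tested 27.0% were called, and 4 genes are too few to set against that share. Trappc9, a vesicle trafficking gene, had 11.0 to 23.8% at site 1 in CeA and 6.4 to 8.7% in cortex SOM+ libraries. At Zdbf2 site 1 the shares overlapped, with 18.3 to 34.0% in CeA and 31.2 to 35.2% in cortex SOM+ libraries (edgeR adjusted p = 0.045). The fourth was Grb10, a growth factor receptor adaptor gene, with mean site 1 shares of 30.7 ± 10.4% in CeA and 30.9 ± 5.09% in cortex SOM+ nuclei (SD, n = 4 each; edgeR adjusted p = 0.877). Both Grb10 windows were higher in CeA SOM+ nuclei, by log2 fold changes of 0.89 ± 0.27 and 0.96 ± 0.19, though with cyclic loess scaling site 1 was not called (adjusted p = 0.0611).

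Among 51 ion channel and transmitter receptor genes 8 were taken and 5 called in SOM+ nuclei (Cacna1c, Cacnb2, Kcnab2, Kcnip1 and Kcnip4), with 10 of 18 windows higher and 2 lower and a median log2 fold change of 0.45. Over all tested, 27.0% of genes were called (33.8% of the 542), and 21.1% of windows were higher and 27.1% lower. Cacna1c, the pore subunit gene of an L-type calcium channel, had 64.3 to 73.7% at site 1 in CeA and 85.2 to 87.9% in cortex SOM+ libraries, and its site 2 window was higher in CeA by a log2 fold change of 0.89 ± 0.15 while site 1 was lower by -0.54 ± 0.16. Cacnb2, which encodes an auxiliary calcium channel subunit, had 47.8 to 61.2% at site 1 in CeA and 28.4 to 38.6% in cortex SOM+ libraries. Kcnip1, which encodes a calcium-binding partner of potassium channels, had 25.5 to 38.1% at site 1 in CeA and 12.7 to 20% in cortex SOM+ libraries. Kcnip4, of the same family, has 4 sites, and its last held 41.6 to 51.0% in CeA and 31.8 to 37.5% in cortex SOM+ libraries (edgeR adjusted p = 0.00342).

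Synaptic adhesion genes numbered 10 of 40, with 4 called in SOM+ nuclei (Cntn4, Nlgn1, Sema6d and Tenm4), 7 of 21 windows higher, 4 lower and a median log2 fold change of 0.09 (10, 2 and 0.27 with cyclic loess scaling). Tenm4, a teneurin gene, had 16.5 to 19.0% at site 1 in CeA and 6.6 to 11.2% in cortex SOM+ libraries. Of 48 scaffold and cytoskeleton genes 21 were taken and 5 called (Ank3, Dclk1, Dlg2, Dlgap4 and Grip1), with 11 of 46 windows higher and 11 lower (21 and 8 with cyclic loess scaling). Both lists stand beside the 27.0% of all genes tested, and 33.8% of the 542, that were called. Dlg2, the postsynaptic scaffold gene of PSD-93, had 46.8 to 54.7% at site 1 in CeA and 62.5 to 68.7% in cortex SOM+ libraries (-0.91 ± 0.16, edgeR adjusted p = 0.000629). Ank3, the axon initial segment ankyrin gene, had 70.1 to 80.8% at site 1 in CeA and 56.3 to 60.1% in cortex SOM+ libraries (1.04 ± 0.22, edgeR adjusted p = 0.00126). Dclk1, a microtubule-associated kinase gene, had overlapping shares around means of 39.8 ± 6.42% in CeA and 49.4 ± 2.71% in cortex (SD, n = 4 each; edgeR adjusted p = 0.0193).

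Of 75 transcription factor and RNA-binding protein genes of neurons 25 were taken and 11 called in SOM+ nuclei, with 17 of 56 windows higher, 19 lower and a median log2 fold change of 0.08. Over all genes tested 27.0% were called, and of the 542 33.8%. Tcf12, which encodes an E-box factor, had 74.1 to 80.9% at site 1 in CeA and 57.8 to 63.4% in cortex SOM+ libraries (1.16 ± 0.16, edgeR adjusted p = 2.05e-05). Rbfox2, a splicing factor gene, had 45.6 to 56.1% at site 1 in CeA and 32.1 to 36.6% in cortex SOM+ libraries (edgeR adjusted p = 0.000122). Ppargc1a, the gene of a coactivator of mitochondrial genes, had 49.7 to 68.8% at site 1 in CeA and 34.8 to 42.8% in cortex SOM+ libraries, and both of its windows were higher in CeA (log2 fold changes of 1.46 ± 0.18 and 0.42 ± 0.18). Elavl2, an RNA-binding protein gene, had 3.8 to 11.2% at site 1 in CeA and 14.6 to 21.6% in cortex SOM+ libraries. The list also holds a gene whose sites moved as 1: Sox6, a transcription factor of cortical interneurons, had log2 fold changes of -2.22 ± 0.21, -1.93 ± 0.19 and -2.56 ± 0.25 at its 3 sites, with no call for the choice between them (edgeR adjusted p = 0.365). Nrxn3, the neurexin gene, likewise was not called, with site 1 shares of 33.6 ± 3.48% in CeA and 40.6 ± 1.86% in cortex SOM+ nuclei (SD, n = 4 each; edgeR adjusted p = 0.0958).

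In bulk nuclei 85 of the 542 genes were called between CeA and cortex (15.7%), against 11.7% of all 1022 genes tested, and in 75 of the 85 the shares did not overlap, against 111 of all 542 (20.5%). Their median difference was 13.2 percentage points, against 4.20 over all 542. Without the 4 libraries that go against their sex label, 24 genes were called, all of them among the 85, and leaving out 1 WT library at a time gave 33 to 42. Cell types differ between these groups, by the marker sums above, and their part in the difference was not tested. The windows gave 122 higher and 194 lower in CeA (26.5% called, against 23.6% of windows of at least 10 CPM and 16.9% of all windows tested, where 6.90% were higher and 9.98% lower), and 17 genes had sites called in both directions. Without the 4, fewer windows were called, and 0 of those called with all libraries had the opposite sign. No library was common to this comparison and that in SOM+ nuclei. Their calls shared 52 genes, 28.4% of the SOM+ calls and 61.2% of the bulk calls, and 50 of the 52 differed in the same direction. Of the 24 bulk calls without the 4, 15 were among the SOM+ calls.

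**Figure D5:**
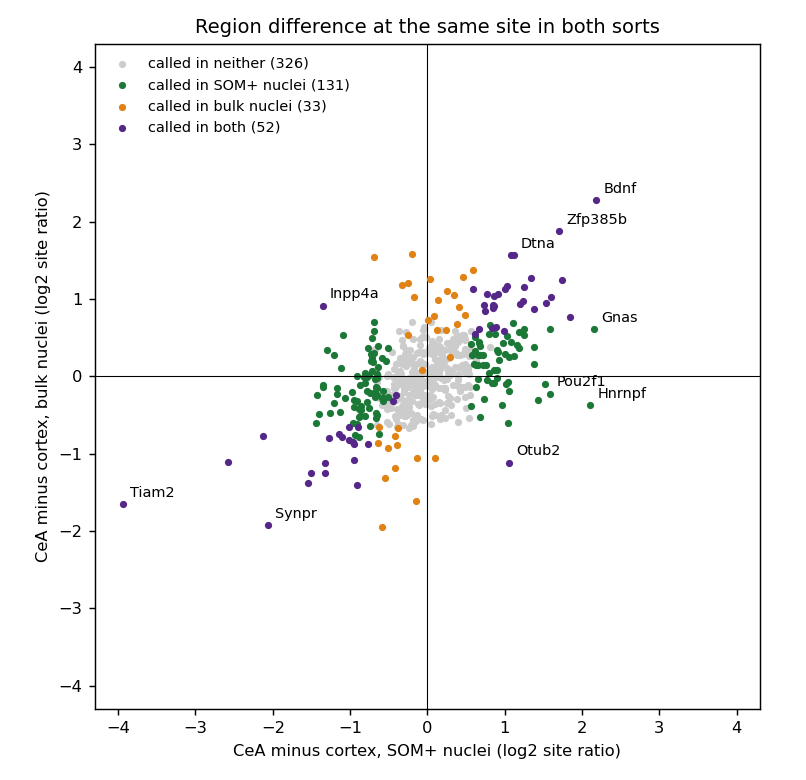
CeA minus cortex difference in the log2 site ratio in SOM+ nuclei (x) and in bulk nuclei (y) for the 542 genes, 1 point each, at the site picked by the smallest p in SOM+ nuclei, coloured by where the gene was called. Of the 52 genes called in both, 50 have the same sign on both axes; Otub2 and Inpp4a are the 2 with opposite signs.

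Bdnf has 4 sites and differed at a minor one in bulk nuclei. Site 4 (chr2:109562078-109564077), the most downstream, held 32.2, 28.4 and 31.9% in CeA KO and 34.7 and 22.0% in CeA WT libraries, against 8.1, 7.0 and 8.9% in cortex KO and 9.6 and 7.9% in cortex WT libraries. Every CeA library was above every cortex library, by 2.28 ± 0.17 in the log2 site ratio (edgeR adjusted p = 1.9e-08). In SOM+ nuclei the same site held 27.6, 22.6, 25.3 and 33.1% in CeA, against 7.8, 7.6, 6.5 and 10.8% in cortex (2.19 ± 0.33, edgeR adjusted p = 3.26e-07). The bulk windows of sites 1, 2 and 3 were lower in CeA, with log2 fold changes of -1.94 ± 0.19, -1.24 ± 0.15 and -0.60 ± 0.18, and that of site 4 was higher, with 0.80 ± 0.19. The windows of sites 1 and 2 were also called without the 4 libraries, and those of sites 3 and 4 were not (edgeR adjusted p = 0.708 and 0.161).

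Zfp385b led the bulk comparison at its other end, with 19.9 ± 5.16% at site 1 in CeA and 54.4 ± 1.86% in cortex (SD, n = 5 each; -2.23 ± 0.14, edgeR adjusted p = 8.61e-12). Osbpl1a site 1 held 13.4, 11.2 and 13.2% in CeA KO and 12.1 and 20.7% in CeA WT libraries, against 37.9, 35.5 and 34.6% in cortex KO and 40.4 and 37.4% in cortex WT libraries (-1.83 ± 0.15, edgeR adjusted p = 1.71e-09). All 4 Osbpl1a windows had a log2 fold change below 0, the steepest -2.27 ± 0.15 at site 1 (edgeR adjusted p = 1.3e-06 without the 4 libraries). Pfkfb2, whose product sets the level of a glycolytic activator, had 6.4 to 14.4% at site 1 in CeA and 28.6 to 30.5% in cortex bulk libraries (edgeR adjusted p = 3.73e-08), with its site 2 window overlapping that of Yod1. Ptprr, a tyrosine phosphatase gene, had 15.9 to 18.8% at site 3 in CeA and 5.6 to 7.3% in cortex bulk libraries (edgeR adjusted p = 3.46e-06).

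Dtna site 3 held 43.3 ± 4.95% in CeA and 20 ± 0.813% in cortex bulk nuclei (SD, n = 5 each; edgeR adjusted p = 1.04e-07). Synpr site 1 held 36.0 ± 4.33% in CeA and 68.1 ± 3.94% in cortex bulk nuclei (SD, n = 5 each; edgeR adjusted p = 7.05e-06). Cntnap2, which encodes an axonal neurexin-family protein, had 54.7 to 74.4% at site 1 in CeA and 79.8 to 87.1% in cortex bulk libraries, where its site 1 window was lower in CeA by a log2 fold change of -1.01 ± 0.16 and its site 2 window higher by 0.59 ± 0.17 (not called without the 4 libraries, edgeR adjusted p = 0.143 and 0.345). Plcd1, a phospholipase C gene, had 20.2 to 40.1% at site 1 in CeA and 49.1 to 58.8% in cortex bulk libraries (edgeR adjusted p = 3.57e-05). Dab2ip, a Ras GTPase-activating protein gene, had 24.6 to 34.7% at site 1 in CeA and 49.4 to 57.1% in cortex bulk libraries (edgeR adjusted p = 5.69e-06). Without the 4 libraries Dab2ip was not called (adjusted p = 0.2), while the other 9 of these 10 genes were, with adjusted p values between 1.35e-07 for Zfp385b and 0.00797 for Cntnap2.

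By list, 3 of the 11 genes of cyclic nucleotide and G protein signalling were called in bulk nuclei. There 11.7% of all genes tested were called, and 15.7% of the 542. Oprm1, the mu opioid receptor gene, had 69.9 to 79.0% at site 1 in CeA and 50.2 to 62.1% in cortex bulk libraries (1.26 ± 0.19, edgeR adjusted p = 0.0036). Pde10a, a striatum-rich phosphodiesterase gene, had 20.8 to 28.9% at site 1 in CeA and 35.9 to 50.5% in cortex bulk libraries (edgeR adjusted p = 0.00245), and Gnal was the third. Of the 25 transcription factor and RNA-binding protein genes Celf2, Nr4a3 and Rbfox3 were called, and Rbfox3, whose product is the neuronal marker NeuN, had 75.3 to 86.6% at site 1 in CeA and 50.4 to 64.3% in cortex bulk libraries (edgeR adjusted p = 0.00232). The calls in the other lists were Kcnab1 and Kcnip4 among 8 ion channel and receptor genes, Cntnap2 among 10 adhesion genes, Epb41l1 among 21 scaffold and cytoskeleton genes, and 0 of the 4 imprinted genes. Rbfox3 (edgeR adjusted p = 0.00797) and Cntnap2 were also called without the 4 libraries, and Oprm1 (0.237), Pde10a (0.094), Gnal (0.312), Celf2 (0.347), Nr4a3 (0.0811), Kcnab1 (0.369), Kcnip4 (0.496) and Epb41l1 (0.287) were not.

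Between SOM+ control and bulk WT nuclei, taken over both regions, 52 of the 542 genes were called (9.59%), against 7.12% of all 1025 genes tested, and 24 of the 52 (46.2%) had shares that did not overlap, against 71 of all 542 (13.1%). Without the 4 libraries, 8 were called, all among the 52, and leaving out 1 library at a time gave 18 to 35. Called sites of 1 gene seldom differed in direction here. By gene, 265 had every site called in 1 direction, 183 had some sites called in 1 direction, 90 had none called and 4 had sites called in both. The same split over all genes tested is not given here. Of the 1193 windows 493 were higher and 291 lower in SOM+ nuclei (65.7% called, against 70.4% of windows of at least 10 CPM and 61.1% of all windows tested, where 30.6% were higher and 30.6% lower), with a median log2 fold change of 0.23, against -0.07 over all windows. With cyclic loess scaling, which moved the median of all windows by 0.12, 378 were higher and 385 lower with a median of 0.06. Of the windows called with TMM scaling, 8 had the opposite sign with cyclic loess, and 0 of these were called there. Without the 4 libraries fewer windows were called, and 0 of those called with all libraries had the opposite sign. Enrichment and the marker sums differed between these groups, by the ranges given above, and their part in the result was not tested.

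Eps15, which encodes an endocytic adaptor, had 24.2 and 24.7% at site 1 in CeA SOM+ control and 24.2 and 24.5% in cortex SOM+ control libraries, against 46.9 and 48.0% in CeA WT and 49.0 and 43.6% in cortex WT bulk libraries. The SOM+ libraries were nearly alike and all lower (-1.45 ± 0.18, edgeR adjusted p = 7.93e-05, and 0.0153 without the 4 libraries). Its site 2 window was higher in SOM+ nuclei by a log2 fold change of 1.25 ± 0.16, and site 1 stood at -0.17 ± 0.17. Nfix, a nuclear factor I gene, had 72.6, 71.1, 76.6 and 73.9% at site 1 in SOM+ control libraries, against 55.5, 41.4, 44.3 and 35.0% in bulk WT libraries (1.82 ± 0.27, edgeR adjusted p = 0.000259, and 0.00539 without the 4 libraries).

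Thap4 had 72.2, 72.1, 76.1 and 66.5% at site 1 in SOM+ control libraries, against 80.4, 86.1, 88.8 and 87.3% in bulk WT libraries (-1.25 ± 0.16, edgeR adjusted p = 2.72e-05, and 0.00548 without the 4 libraries), at a window that overlaps Atg4b. Magi1, a membrane scaffold gene, had 49.5, 51.9, 59.7 and 55.4% at site 1 in SOM+ control libraries, against 67.1, 67.2, 71.8 and 77.0% in bulk WT libraries (-1.05 ± 0.14, edgeR adjusted p = 0.000632, and 0.0153 without the 4 libraries). These 4 genes were called either way. The other 6 named by the rule, Cacnb2, Pde4a, Mbp, Ncoa7, Cntn4 and Phc2, were called with all libraries (edgeR adjusted p between 0.000766 and 0.00382) but not without the 4 (adjusted p between 0.102 and 0.171). Mbp, the myelin basic protein gene, had 73.9 to 85.1% at site 1 in SOM+ control libraries and 54.8 to 65.5% in bulk WT libraries, and the window of its site 2 was lower in SOM+ nuclei by a log2 fold change of -1.43 ± 0.21 while that of site 1 stood at -0.20 ± 0.15. The sum over 11 oligodendrocyte markers, of which Mbp is one, was 109 to 158 CPM in SOM+ groups and 252 to 313 CPM in bulk groups, and its part in the Mbp result was not tested.

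Bdnf showed the other pattern between the sorts. All 4 of its windows were lower in SOM+ control than in bulk WT nuclei, by log2 fold changes from -1.96 to -1.81 (-2.26 to -1.87 without the 4 libraries), and the choice between them was not called (edgeR adjusted p = 0.982). Among the lists, the calls between the sorts were Pde4a and Pde8b, Cacnb2 and Kcnip1, Cntn4, Cntnap2 and Nfasc, Epb41 and Magi1, and Myt1, Nfix and Nr4a3. Myt1, a zinc finger transcription factor gene, had mean site 1 shares of 75.9 ± 4.25% in SOM+ control and 57.0 ± 6.88% in bulk WT nuclei (SD, n = 4 each; edgeR adjusted p = 0.00499, and 0.152 without the 4 libraries). Of these list genes Cntnap2, Magi1 and Nfix were called without the 4.

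By limma on the site ratios more genes of the 542 were called. Between the regions in SOM+ nuclei there were 231 (42.6%, against 31.9% of all genes tested) and in bulk nuclei 171 (31.5%, against 22.6% of all genes tested). Between the sorts there were 128 (23.6%, against 17.0% of all genes tested), and for the interaction described next 18, where 1.76% of all genes tested were called.

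Whether the region difference itself depended on the sort was tested as an interaction of SOM+ control and bulk WT libraries. It called 7 of the 542 genes (1.29%), against 0.683% of all 1025 genes tested, and all 7 belonged to the 542. Otub2, a deubiquitinase gene, had 39.5 and 48.1% at site 1 in CeA SOM+ control libraries, against 26.8 and 19.7% in cortex SOM+ control libraries, and 38.7 and 38.3% in CeA bulk WT libraries, against 53.9 and 56.2% in cortex bulk WT libraries. Inpp4a, an inositol phosphatase gene, had the opposite order, with 65.9 and 75.6% in CeA SOM+ control against 87.6 and 85.0% in cortex SOM+ control libraries, and 67.9 and 75.7% in CeA bulk WT against 65.2 and 52.2% in cortex bulk WT libraries. Both genes were called in each sort alone, in opposite directions, though Inpp4a was not called in bulk nuclei without the 4 libraries (edgeR adjusted p = 0.0771). In the region fits over all libraries of each sort, Tiam2, Hnrnpf, Pou2f1 and Phactr1 had the larger region difference in SOM+ nuclei. There Cep112 had a log2 site ratio difference of -0.69 in SOM+ and 0.7 in bulk nuclei, and it was called in SOM+ nuclei alone. Among windows, 156 of the 1193 were higher and 251 lower for the interaction (34.1% called, against 35.2% of windows of at least 10 CPM and 24.7% of all windows tested, where 9.46% were higher and 15.2% lower), and with cyclic loess scaling 246 were higher and 156 lower. Without the 4 libraries 75 windows were higher and 88 lower, and 0 genes were called, with adjusted p values for these 7 between 0.0654 and 0.384.

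Fear conditioning was compared with control in SOM+ nuclei of each region, and the choice of site was called by edgeR in 0 of the 542 genes in CeA and in 0 in cortex (background 0 of 1027 in both). At an unadjusted p under 0.05 there were 8 genes in CeA and 0 in cortex, against 22 and 8 of all 1027 genes tested. Limma on the site ratios called 0 in both. No window of these genes was called either. At an unadjusted p under 0.05 there were 16 and 8 among the 1193, against 598 and 288 of all 25157 windows tested. The median difference in share was 2.54 percentage points in CeA and 1.48 in cortex, with 2 libraries per group. The genes with the smallest p in CeA included Schip1 and Sept9 (edgeR adjusted p = 0.983 for each). Sept9, a septin cytoskeleton gene, had 46.6 and 44.8% at site 1 in fear-conditioned and 62.3 and 58.6% in control CeA libraries, a difference of -0.85 ± 0.26, while its cortex SOM+ libraries had 53.0 and 51.2% after fear conditioning and 52.7 and 51.2% in control. Schip1 site 3 had 40.7 and 42.9% in fear-conditioned and 46.7 and 53.0% in control CeA libraries. In cortex the smallest p belonged to Inpp4a, Nr4a3 and Plekhg5 (edgeR adjusted p = 0.996 for each). Nr4a3, an activity-induced nuclear receptor gene, had 92.1 and 93.0% at site 1 in fear-conditioned and 88.5 and 89.8% in control cortex libraries. Bdnf site 4, in the same libraries, had 7.8 and 7.6% after fear conditioning and 6.5 and 10.8% in control, so the groups overlapped.

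Erbb4 KO was compared with WT in bulk nuclei of each region, where the deletion touches the SOM+ nuclei alone, and edgeR again called 0 of the 542 genes in CeA and 0 in cortex (background 0 of 1022 in both). At an unadjusted p under 0.05 there were 21 genes in CeA and 6 in cortex, against 41 and 26 of all 1022 genes tested. Limma on the site ratios called 0, and no window was called. Of the 1193 windows 45 and 32 had an unadjusted p under 0.05, against 745 and 823 of all 25196 tested. Without cortex KO replicate 3, 59 windows of these genes were called in cortex, and the share of all windows in that fit is not given here. That library differed most from its group: its counts had a chi-square per degree of freedom of 14.91 against replicate 1 and 8.62 against replicate 2. Every other pair of libraries within a group had 3.31 to 6.1. The 0 windows called in cortex thus depend on this library. Leaving out the 4 libraries leaves WT replicate 2 as the only WT library in each region, so that fit says little about KO. The median difference in share was 3.25 points in CeA and 2.08 in cortex. Cyth1, an exchange factor gene for ARF GTPases, had 82.9, 80.3 and 83.5% at site 1 in CeA KO and 68.9 and 67% in CeA WT libraries (1.08 ± 0.28, edgeR adjusted p = 0.979). Gas7, a growth-arrest gene of neurite outgrowth, had 10.7, 15.7 and 9.0% at site 2 in CeA KO and 22.4 and 24.3% in CeA WT libraries (-1.32 ± 0.34, edgeR adjusted p = 0.979). The shares of both did not overlap, which was so in 178 of all 542 genes (32.8%) in CeA, and neither passed the test over all genes. In cortex the smallest p belonged to Cntnap2, Grhl1 and Ahcyl2 (edgeR adjusted p = 0.993 for each). Grhl1, a grainyhead-like factor gene, had 86.2, 85.3 and 88.8% at site 1 in cortex KO and 93.3 and 92.1% in cortex WT libraries. The other gene of the neurotrophin and ErbB list among the 544 besides Bdnf was Fgf14, a partner of sodium channels, which was not called in any comparison.

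The CpG content of a site did not separate the windows that were called in the region comparisons by much. Between CeA and cortex SOM+ nuclei 62.0% of the 321 sites with a CpG ratio of at least 0.6 and 59.6% of the 401 other matched sites were called, and between the regions in bulk nuclei 23.7% and 27.4%. Between SOM+ control and bulk WT nuclei the shares were 72.0% and 63.1%.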

How the data were processed

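The authors deposited counts, the reads in each promoter window (1 kb either side of a start, build mm9) of every library, not normalised (whole numbers with unequal totals). The submitters' processing notes name Bowtie2, MACS2, Picard 1.88, Trimmomatic 0.32 and bcl2fastq 2.16.0.10. How reads were counted, and what was done about the Tn5 offset, strand and duplicates, is not given in the sources used here. Of 26728 entries, 663 repeated a position and were left out. Window counts cannot separate starts closer than about their width, and a window that overlaps another gene shares its reads.

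From the counts, edgeR 4.0.16 in R 4.3.3 (TMM scaling, filterByExpr by group, quasi-likelihood) was fitted to the 8 SOM+ libraries (25157 windows, 4 residual degrees of freedom), the 10 bulk libraries (25196 windows, 5 degrees) and all 18 (25246 windows, 9 degrees), the last 2 with labelled sex as a term. The choice of site was tested per gene with diffSpliceDGE, and p values were adjusted by Benjamini and Hochberg over all genes or windows tested. The log2 site ratio per library (0.5 added to each count) was fitted with limma 3.58.1. The tests were checked on simulated data. Interaction contrasts used control and WT libraries. Promoters matched 344 genes (736 windows) within 20 bases.

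Alternatives tried were other scalings (relative log expression size factors, and cyclic loess with limma voom), DESeq2 1.42.0 for windows, no filter, a replicate block, no sex term or sex from Y-linked counts, starts 10000 bases apart, 20 CPM, windows shared with another gene left out, and each library left out. The log ratio fit and the settings on the sex labels were chosen after seeing the data.

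The members and gene lists were chosen with earlier results of these data known. Named genes were, per comparison, up to 10 called genes with the smallest p and shares that do not overlap (3 where fewer than 3 were called), up to 10 whose strongest site differed between every CeA and cortex SOM+ library, 2 to 4 per gene list, and Bdnf, Nrxn3, Gnas, Grb10, Dclk1, Sox6 and Ank3; predicted or clone names were left out, and 1 gene that the rule names is not reported here.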

Additional observations from a re-analysis of the deposited data

Results flagged for a closer look

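In 7 genes the CeA minus cortex difference in the log2 site ratio at site 1 itself differed between SOM+ control and bulk WT nuclei, by the interaction test over all 18 libraries. The difference of differences was 2.57 ± 0.43 (SE) for Hnrnpf (edgeR adjusted p = 0.000623), 2.34 ± 0.35 for Otub2 (adjusted p = 0.000623), -2.80 ± 0.48 for Tiam2 (adjusted p = 0.00168) and 1.84 ± 0.31 for Pou2f1 (adjusted p = 0.00511). It was -2.21 ± 0.40 for Inpp4a (adjusted p = 0.0114), 2.04 ± 0.38 for Phactr1 (adjusted p = 0.0483) and -2.15 ± 0.53 for Cep112 (adjusted p = 0.0483). The sort, the mouse line and the cell types differ together between the 2 kinds of nuclei and cannot be told apart. Leaving out 1 library at a time, Hnrnpf, Otub2 and Tiam2 were called throughout, and Pou2f1, Inpp4a, Phactr1 and Cep112 were each lost at least once. Without the 4 bulk libraries that go against their sex label none of the 7 was called.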

How the results depend on the processing

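The counts of genes called for the choice of site stayed within 1.5 times their value (183, 85, 52 and 7) under the other scalings and filters, except as follows. By the log2 site ratio with limma, 171 genes were called between the regions in bulk nuclei, 128 between SOM+ control and bulk WT nuclei and 18 for the interaction. Without the 4 libraries that go against their sex label the counts were 24, 8 and 0, and windows called were 54 between the bulk regions and 163 for the interaction. The cause was not tested, though these fits hold fewer libraries, with WT replicate 2 as the only WT library in each region. At 20 CPM, which leaves 301 genes, the strongest site was the same in all libraries in 178. Leaving out each library in turn gave 145 to 176 genes (612 to 691 windows) between the regions in SOM+ nuclei, 33 to 102 (77 to 442) in bulk nuclei, 18 to 35 (694 to 729) between the sorts, 4 to 6 (260 to 301) for the interaction, and 0 for fear conditioning and KO, but for 0 to 59 windows in cortex KO. For the interaction, the count was 4 without CeA SOM+ control replicate 1 or 2, CeA WT replicate 2 or cortex WT replicate 1 or 2, and windows numbered 266 without cortex SOM+ control replicate 2 and 260 without CeA WT replicate 1. The bulk count fell to 42, 34, 40 and 33 without CeA WT replicates 1 and 2 and cortex WT replicates 1 and 2; each of the 8 SOM+ control and bulk WT libraries moved the count between the sorts, except CeA SOM+ control replicate 1. With the replicate number as a block the calls were 216, 77, 40 and 6, and 0 for fear conditioning and KO. Deviations of same-numbered libraries correlated with r from -0.366 to 0.406 over all pairs of groups. Between CeA and cortex of 1 condition r was 0.129 in SOM+ control, 0.043 in SOM+ fear and 0.38 in bulk WT libraries. In KO replicates 1, 2 and 3 it was -0.193, 0.263 and 0.02. The Y-linked counts that went against the label had the same number in both regions. In SOM+ nuclei the number coincides with the labelled sex. The labels do not tie a number to a mouse, so whether the regions shared mice cannot be told, and the main tests treat them as unpaired. Of the single-gene results, 1881 kept direction and call, 169 lost the call and 26 gained it. The fear and KO comparisons hold 2 or 3 libraries a group, and how depth limits them was not tested.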
